A study of Mus musculus with 12 samples.

Results

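The 10 genes of the actin cytoskeleton described here were followed in neutrophils of the mouse heart: the cytoplasmic actins Actb and Actg1, the monomer-binding and filament-severing genes Pfn1 and Cfl1, the Arp2/3 subunits Arpc2, Arpc3 and Arpc5 with the coronin Coro1a, the bundling gene Lcp1, and the membrane linker Msn. They were chosen by name, without a rule on their values but with earlier results of these data known, and all 10 were found by symbol among the 11911 genes of the deposited table. None of the 10 differed between the genotypes beyond the spread between libraries, and all 10 were abundant in all 12 libraries. Between the lowest and the highest library the values differed by up to 6.36-fold, for Msn. For 3 of the 10 genes the spread between libraries followed a library-wide relation with exon length.

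RNA-seq was made from neutrophils sorted from the digested left ventricle as CD45.2+ Ly6G+ CD64- RFP+ cells, 800 cells to a library. The study compared 6 libraries of the genotype labelled Control (control 2, 6, 7, 8, 11 and 12) with 6 of the genotype labelled LOY (LOY 3, 4, 5, 10, 14 and 15), the name given to loss of the Y chromosome. All 12 share the treatment label Control, and all 12 titles read Control BMT. The groups rest on the genotype label and on the codes in the titles, which end in C for control and in KO for LOY. How the Y chromosome was lost, the strain, sex and age of the mice, and whether each library came from its own heart are not stated in the labels used here, and the spread behind every p-value here may thus be technical in part.

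The files gave 6767108 to 12561174 reads of listed genes per library. The summed normalised reads of the 5 listed Y-linked genes ran from 1328 to 2210 in the control libraries and from 29.4 to 140.5 in the LOY libraries, so every library matched its genotype label. All 12 genes of a neutrophil marker list were in the table. Their sum, led by the granulocyte calcium-binding genes S100a9 and S100a8, was 226357 to 632628 in control and 206691 to 403683 in LOY libraries. Ly6g, the gene of the sorting antigen Ly6G, was uneven: 0 in LOY 3, 0.71 in LOY 10, 0.93 in control 12 and 1039 in control 2, its highest library. A 16-gene cardiomyocyte list summed to 5147 to 9214 in control and 5950 to 77556 in LOY libraries. LOY 10 was far above the rest there. The libraries control 6, control 8 and LOY 15 stood apart in how their reads fell on short and long transcripts. The main results that rest on these libraries are given with and without them, apart from the correlations across libraries. For those, at most 2 libraries were left out.

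Actin assembles from monomers into polar filaments, and a neutrophil crawls by pushing its front with a branched filament network and contracting at its rear. Profilin charges monomers for growth, the Arp2/3 complex starts new filaments as branches on old ones, and cofilin and coronin take aged network apart. Plastins bundle filaments, and the ezrin, radixin and moesin family ties them to the plasma membrane. Neutrophils are among the cells richest in these proteins, which also serve phagocytosis and the trafficking of granules.

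The cytoplasmic actins are so alike that the stretch holding all their residue differences is shown first. Their coding sequences have 1125 bases each and are 88.6% identical, with 128 differences, and the 375-residue proteins differ at 4 places only, D2E, D3E, D4E and V10I (Actb residue first, counted from the initiator methionine as 1). The first 60 coding bases on GRCm38, which hold all 4 of these codons, are given below for Actb at chr5:142905627-142905686 and Actg1 at chr11:120348032-120348091, both on the minus strand, with the 9 bases that differ in capitals.
Actb: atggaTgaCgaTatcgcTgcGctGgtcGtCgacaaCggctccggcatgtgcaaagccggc
Actg1: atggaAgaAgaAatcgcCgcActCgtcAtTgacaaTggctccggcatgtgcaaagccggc
Of the windows of 50 bases along the 2 transcripts, 30 are the same in both genes, and of the windows of 100 bases 0 are. Other genes share sequence with the 10 as well. For Actg1, 56.7% of the 50-base windows also occur in transcripts of other genes, mainly the pseudogenes Gm12715 and Gm8399, which held 1052 and 635 normalised reads on average against 27684 for Actg1 itself. The share was 23.0% for Cfl1, most of it with Snx32, which overlaps it, 14.4% for Lcp1 and 14.2% for Actb. How the authors' counting placed reads from such windows was not tested, so these values carry that uncertainty. For Pfn1, Coro1a, Msn and Arpc3 no window of 50 bases was shared.

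Values are normalised reads, the reads of a gene after division by the size factor of its library. Actb (ENSMUSG00000029580, chr5:142903115-142906754, minus strand) encodes beta-actin, which concentrates at moving edges. Its normalised reads were 10802 at the lowest (control 7), 26591 at the median and 38272 at the highest (control 2) in the control libraries, and 16692 (LOY 14), 22200 and 28551 (LOY 5) in the LOY libraries. The LOY values all lay inside the control range. The group means were 24941 ± 11876 and 22140.2 ± 4872 (SD, n = 6 each), and the log2 fold change was -0.03 (SE 0.32). All fold changes here are differences between the group means of log2(normalised reads + 1), LOY minus control, and their sign can differ from that of the plain means. Actg1 (ENSMUSG00000062825, chr11:120345690-120348542, minus strand) encodes gamma-actin, the other cytoplasmic form. It ranged from 16743 (control 8) over a median of 28949 to 34546 (control 6) in control libraries, and from 22673 (LOY 5) over 27307 to 29955 (LOY 4) in LOY libraries. It was the steadiest of the 10 genes, with a highest value 2.06 times the lowest and a log2 fold change of -0.04 (SE 0.18).

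Pfn1 (ENSMUSG00000018293, chr11:70651850-70654644, minus strand) encodes profilin 1, which binds actin monomers and speeds their reloading with ATP. Its control values ran from 9217 (control 11) over a median of 13623 to 22024 (control 8), and its LOY values from 8291 (LOY 10) over 13562 to 29833 (LOY 15). Both the lowest and the highest library were LOY. The plain means were 15378 ± 5232 and 15744 ± 8015 (SD, n = 6 each), higher in LOY, while the log2 fold change was -0.04 (SE 0.31) by limma and 0.03 by DESeq2. Cfl1 (ENSMUSG00000056201, chr19:5490455-5495201, plus strand) encodes cofilin 1, which severs filaments and speeds their disassembly. Control values ran from 3847 (control 12) over a median of 5349.5 to 8371 (control 6), and LOY values from 4239.6 (LOY 10) over 6422 to 7969.9 (LOY 15). Cfl1 was the only one of the 10 with a fold change above 0, at 0.17 on the log2 scale (SE 0.24). It overlaps Snx32 on the other strand, and the library kit does not mark strand. Snx32 itself had 44.9 normalised reads on average.

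The Arp2/3 subunits overlapped between the genotypes almost completely. Arpc2 (ENSMUSG00000006304, chr1:74236084-74268209, plus strand) belongs to the core of the complex that holds the mother filament. It ran from 4547 (control 7) over a median of 7119.8 to 10177 (control 8) in control, and from 5251 (LOY 10) over 7318 to 10085 (LOY 15) in LOY libraries. The means, 7594.5 ± 2092 and 7551 ± 1964 (SD, n = 6 each), were nearly equal, and the log2 fold change was -0.00062 (SE 0.24). Arpc3 (ENSMUSG00000029465, chr5:122391878-122414184, plus strand), a small subunit of the same complex, ran from 2803 (control 11) over 4408 to 6237 (control 8) and from 2554 (LOY 10) over 3950.3 to 7604 (LOY 15), a log2 fold change of -0.10 (SE 0.30). Arpc5 (ENSMUSG00000008475, chr1:152766542-152775597, plus strand), the smallest subunit, ran from 3709 (control 7) over 5254 to 10074 (control 8) and from 3446 (LOY 3) over 5857 to 7749 (LOY 5), a log2 fold change of -0.05 (SE 0.28). For all 3 subunits control 8 was the highest control library, and for Arpc2 and Arpc3 LOY 10 was the lowest and LOY 15 the highest LOY library.

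Coro1a (ENSMUSG00000030707, chr7:126699773-126707787, minus strand) encodes coronin 1A, the coronin of blood cells, which binds filaments and the Arp2/3 complex. Control values ran from 8008 (control 8) over a median of 20298 to 23771 (control 6), and LOY values from 8742 (LOY 10) over 16091 to 22892 (LOY 15). One library in each group was thus well below the rest. The log2 fold change was -0.13 (SE 0.29).

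Lcp1 and Msn, which act on finished filaments, had the lowest fold changes of the 10 genes and neither passed the test. Lcp1 (ENSMUSG00000021998, chr14:75131101-75230842, plus strand) encodes L-plastin, the filament-bundling plastin of white blood cells. It ran from 13909 (control 6) over a median of 22236 to 31931 (control 7) in control, and from 8773 (LOY 15) over 20981 to 24954 (LOY 14) in LOY libraries. The means of 22768 ± 7742 and 19339 ± 6032 (SD, n = 6 each) gave a log2 fold change of -0.24 (SE 0.29). Msn (ENSMUSG00000031207, chrX:96096042-96168552, plus strand) encodes moesin, the main member of its family in leukocytes. Its control values ran from 1977 (control 6) over a median of 10030.8 to 12570.4 (control 2), and its LOY values from 2025 (LOY 15) over 8419 to 10775 (LOY 4). One library of each group lay far below the others, and between the remaining libraries the values overlapped. The log2 fold change was -0.26 (SE 0.48), with a 95% interval from -1.30 to 0.78. Leaving out LOY 15 moved it to 0.08 and leaving out control 6 to -0.66, so single libraries decide its sign and size.

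**Figure D1:**
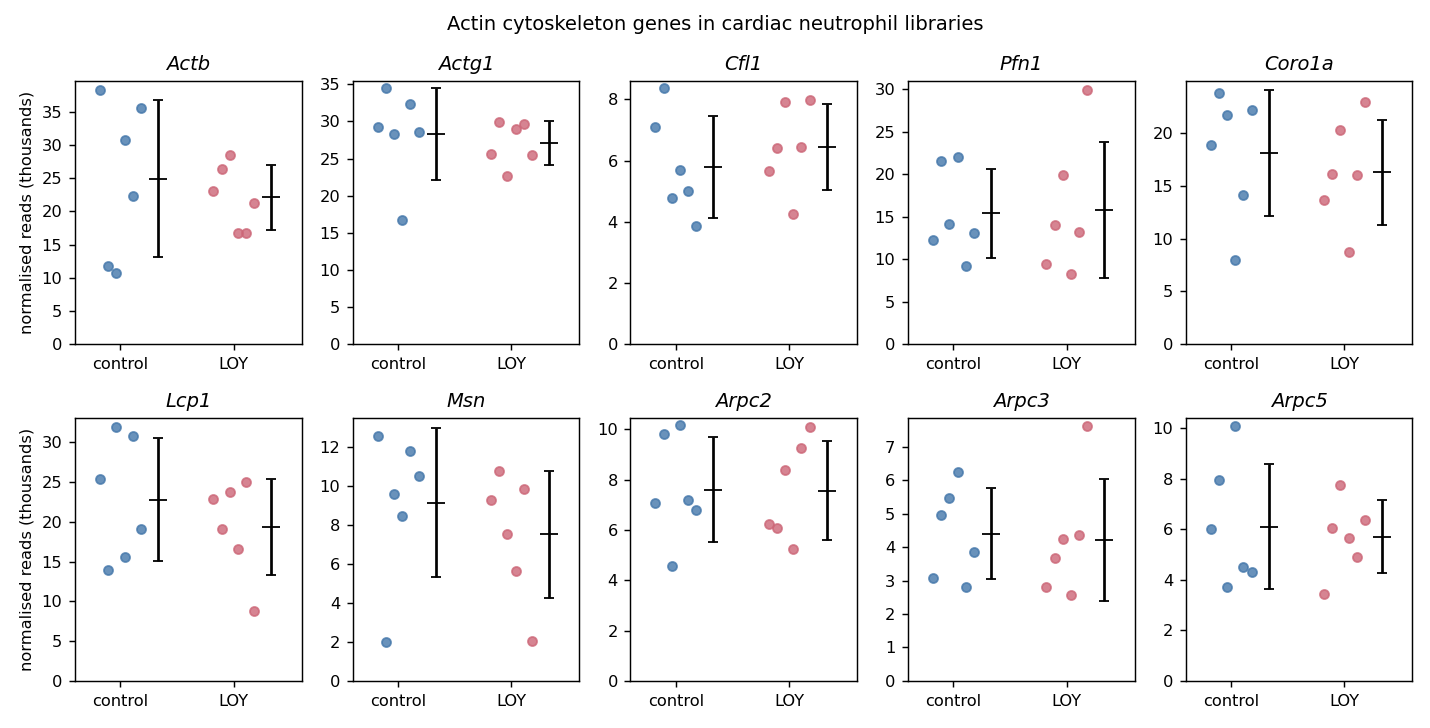
Normalised reads (in units of 1000, y axis) of the 10 actin cytoskeleton genes in the 6 control (blue) and 6 LOY (red) libraries, 1 point per library, with the mean and SD of each group in black. The groups overlap in all 10 panels, and in the Msn panel 1 library of each group sits far below the rest, control 6 at 1977 and LOY 15 at 2025.

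Across the 10 genes, 0 were called by limma at an adjusted p under 0.05, where 2 of all 6951 genes tested were (0.0288%). All 10 passed the filter on low values (10 or more normalised reads in 6 or more libraries), since their lowest value in any library was 1977. At an unadjusted p under 0.05, 0 of the 10 were counted, with 0.413 the lowest p, against 304 of 6951 genes (4.37%). DESeq2 on the recovered reads called 0 of the 10, against 303 of 9723 genes (3.12%), and edgeR called 0 of the 10 and 0 of 7054 genes (0%), 129 of which had an unadjusted p under 0.05. The groups overlapped for all 10 genes, while 14 of 6951 genes did not overlap (0.201%). In the authors' deposited table the log2 fold changes of the 10 genes ran from -0.28 to 0.15 and their adjusted p was 0.999 throughout.

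These genes were measured well enough to bound a difference. For 9 of the 10 the 95% interval of the fold change lay within 1 log2 unit of 0, that is, within a 2-fold difference either way, with Msn the exception. Among all genes tested 395 (5.68%) had such an interval. The residual SD of the 10 genes on the log2 scale ran from 0.286 to 0.954 with a median of 0.526, where the median of all tested genes was 2.37. Both contrasts set abundant genes against genes of all levels, since the 10 ranked from 30 to 255 by mean level among the 11911 genes. For the neutrophil marker list, led by abundant genes as well, the median residual SD was 0.639. A p above the threshold does not show that the levels were equal. Of the 10 fold changes 9 were below 0 with a median of -0.04, where 49.6% of all tested genes were below 0 and their median was 0.01. That direction followed the setting: the median of the 10 was 0.03 without LOY 10, 0.04 without control 8, 0.04 after quantile normalization, and -0.11 without the 3 libraries of negative length coefficient. The 10 genes together took 1.43% to 2.19% of the reads of a library, 1.79% ± 0.26 in control and 1.73% ± 0.19 in LOY (SD, n = 6 each).

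**Figure D2:**
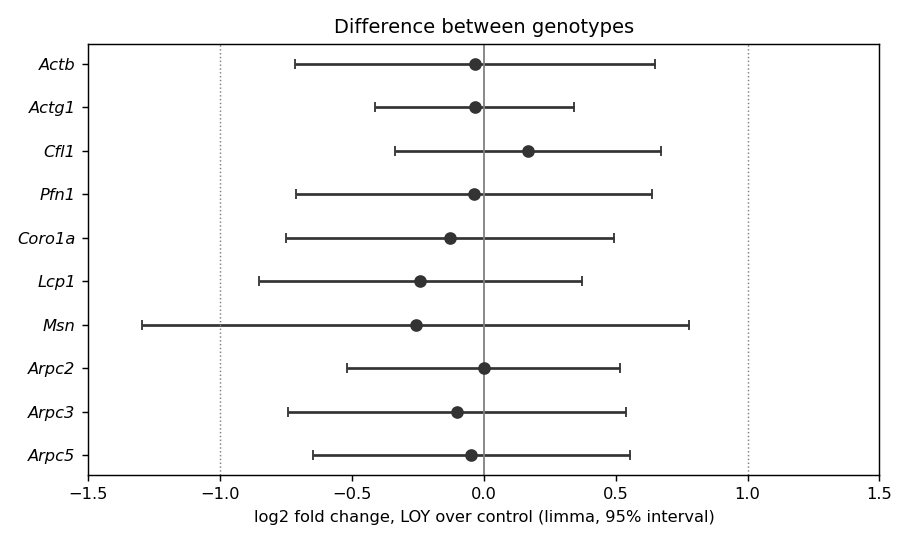
Log2 fold change of LOY over control (x axis) for the 10 genes from limma, points with 95% intervals; dotted lines mark 1 log2 unit either way. All 10 intervals include 0, and only that of Msn, from -1.30 to 0.78, passes a dotted line.

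The balance of the cytoplasmic actins varied between libraries in both groups. Normalised reads of Actb over those of Actg1 were 0.341 at the lowest (control 6), 0.382 in control 7 and 1.84 at the highest (control 8) among the control libraries, and ran from 0.562 (LOY 14) to 1.26 (LOY 5) among the LOY libraries. Actb thus exceeded Actg1 in 4 libraries, control 2, 8 and 12 and LOY 5. The log2 ratio was -0.31 ± 1.00 in control and -0.31 ± 0.44 in LOY (SD, n = 6 each), a difference of 0.0020 with p = 0.996 in a two-sided exact permutation test over all 924 splits, whose smallest possible p is 0.00216. The sum of both actins was 53237 ± 11023 in control and 49212 ± 4008 in LOY libraries.

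The muscle actins Acta1 (skeletal), Acta2 (smooth muscle) and Actc1 (cardiac) are not neutrophil genes, and in cells sorted from a heart their reads bear on purity. Their share of the reads of all 5 listed actins was 1.92% at the lowest, 2.18% at the median and 4.93% at the highest in control libraries, and 1.37%, 4.39% and 23.4% in LOY libraries. Apart from LOY 10, at 23.4%, no library passed 5.40%. The means of 2.74% ± 1.18 and 6.80% ± 8.29 (SD, n = 6 each) did not differ beyond the spread (exact permutation p = 0.216, two-sided), although without LOY 5 the p was 0.0498. The difference of 4.06 percentage points was 0.741 without LOY 10. Actc1 alone, as a share of Actc1, Actb and Actg1, was 0.543% to 1.65% in control and 1.36% to 20.0% in LOY libraries (exact permutation p = 0.0108, two-sided, a share added after seeing the data). Without LOY 10 that share was at most 3.84% in LOY libraries, and its difference between the groups was 1.44 percentage points in place of 4.35 (exact permutation p = 0.0130, two-sided). Actc1 had 584 ± 227 normalised reads in control and 2986 ± 4191 in LOY libraries. Its log2 fold change of 1.67 (SE 0.60) had an adjusted p of 0.997 by limma, while DESeq2 gave 2.35 with an adjusted p of 0.0126. Without LOY 10 the LOY mean was 1287 ± 567 (SD, n = 5), and the fold change was 1.12 by limma (adjusted p = 0.996) and 1.14 by DESeq2 (adjusted p = 0.227), so the DESeq2 call rests on that library. Acta2 went the other way in its means, 559 ± 293 against 238 ± 249.3, with a log2 fold change of -3.00 (SE 1.52, adjusted p = 0.997 by limma).

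Actc1 belongs to the cardiomyocyte list too, all 16 genes of which were in the table. All 15 tested genes of that list had a fold change above 0, with a median of 1.42, where 49.6% of all tested genes were below 0. Of these 15, limma called 0 and DESeq2 3 (Ttn, Myh6 and Actc1), against 2 of all 6951 genes (0.0288%) and 303 of 9723 (3.12%). DESeq2 also called Actn2, which did not pass the limma filter. Without LOY 10, 13 of 14 tested genes were above 0 with a median of 0.83, and limma called 0. DESeq2 without that library called 3 of the 16, and 285 of the 11911 genes of the whole table. The summed list was 77556 in LOY 10, 12493 to 18887 in LOY 3, 4, 14 and 15, and 5950 in LOY 5, against at most 9214 in any control library. A smooth muscle and pericyte list, which holds Acta2, had 8 of 9 genes in the table and summed to 243 to 1275 in control and 643 to 4140.0 in LOY libraries. Des alone made up 3598 of the 4140.0 in LOY 10, with means of 61.1 ± 149 in control and 973 ± 1338 in LOY libraries (SD, n = 6 each). The means of Acta2, Tagln and Kcnj8 were lower in LOY, and those of Myh11, Cnn1, Rgs5 and Pdgfrb higher. The part of cardiomyocytes, smooth muscle cells and pericytes in the values of the 10 genes was not tested. LOY 10 had the lowest mean log2 level of the 10 genes of any library (12.96, others 13.20 to 13.62), and with that library left out 0 of the 10 were called.

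**Figure D3:**
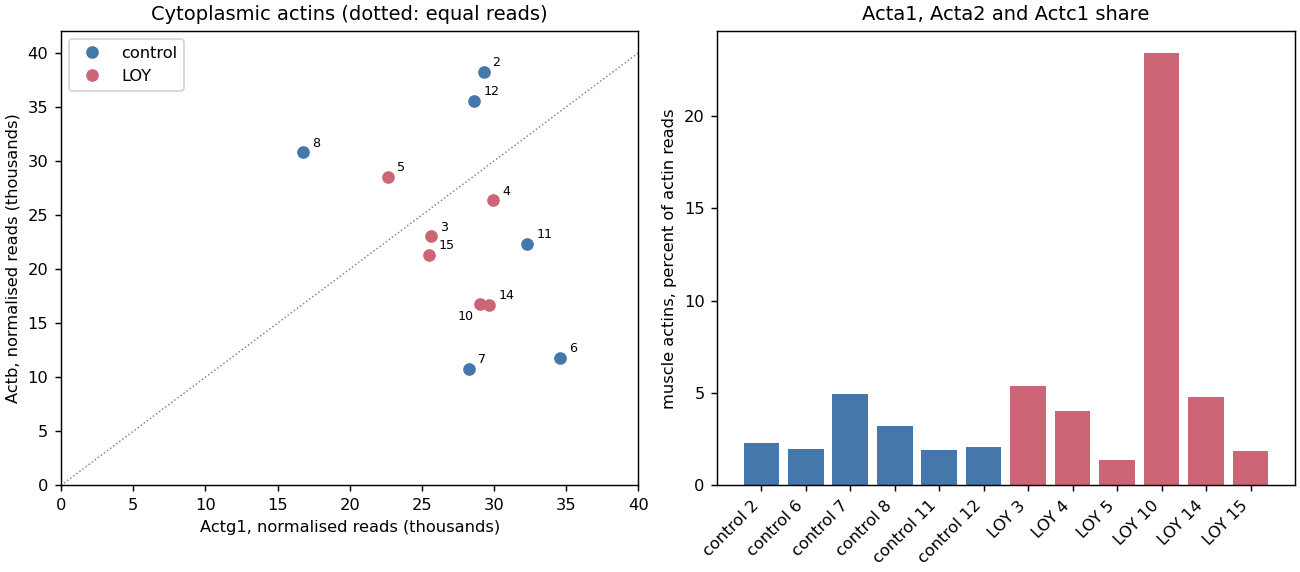
Left, Actb (y axis) against Actg1 (x axis) in units of 1000 normalised reads, 1 point per library with its number, control in blue and LOY in red, with a dotted line where both are equal. Right, the percent of actin reads in Acta1, Acta2 and Actc1 per library, where LOY 10 reaches 23.4% and the other libraries lie between 1.37% and 5.40%.

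The spread between libraries was not shared evenly by the 10 genes. For each library a length coefficient was computed, the Spearman correlation across 1063 abundant genes (the 10 left out) between exon length and the log2 deviation of the gene from its own mean. It is above 0 where long genes are relatively high. The coefficient was -0.486 in LOY 15, -0.235 in control 6, -0.216 in control 8 and between 0.057 and 0.344 in the other 9 libraries. Its group means were the same, 0.059 ± 0.239 in control and 0.060 ± 0.282 in LOY (SD, n = 6 each, exact permutation p = 0.998, two-sided).

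Ordered by the principal transcript, the shortest of the 10 ran against this coefficient and the longest ran with it. That order depends on the length taken. By the union of all annotated exons Arpc3 has 2762 bases, more than Actb with 2679 and Actg1 with 2658. Arpc2 with 2033 and Arpc5 with 2276 are then shorter than Pfn1 with 2405. Lcp1 with 9504 and Msn with 6327 are the longest by that length too. Pfn1, with a transcript of 861 bases, correlated with it at r = -0.87 over the 12 libraries (adjusted p = 0.00135; rho = -0.81, adjusted p = 0.0138) and still at -0.73 without the 2 libraries of most extreme coefficient. Arpc3, with 899 bases, gave r = -0.85 (adjusted p = 0.00135; rho = -0.80, adjusted p = 0.0138), and -0.77 without the 2. Lcp1, with 3841 bases, gave r = 0.87 (adjusted p = 0.00163; rho = 0.71, adjusted p = 0.0433), and 0.62 without the 2. These p-values come from 100000 permutations, adjusted by Benjamini-Hochberg over the 10 genes. All 3 relations had the same sign within each genotype, with r of -0.95 and -0.82 for Pfn1, -0.80 and -0.89 for Arpc3 and 0.90 and 0.89 for Lcp1 in control and LOY. Leaving out 2 libraries does not remove all 3 of negative coefficient, and r without all 3 was not computed. Arpc2, with 1439 bases, passed by r (-0.65, adjusted p = 0.0397) but not by rho (adjusted p = 0.0714). For Msn, with 3842 bases, r was 0.80 (adjusted p = 0.0124), but rho was 0.50 (adjusted p = 0.143) and r fell to 0.30 without the 2 libraries, so it rests on them. Actb, Actg1, Coro1a, Cfl1 and Arpc5, with 1747 to 2354 bases, gave adjusted p-values from 0.0719 to 0.609 for r.

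**Figure D4:**
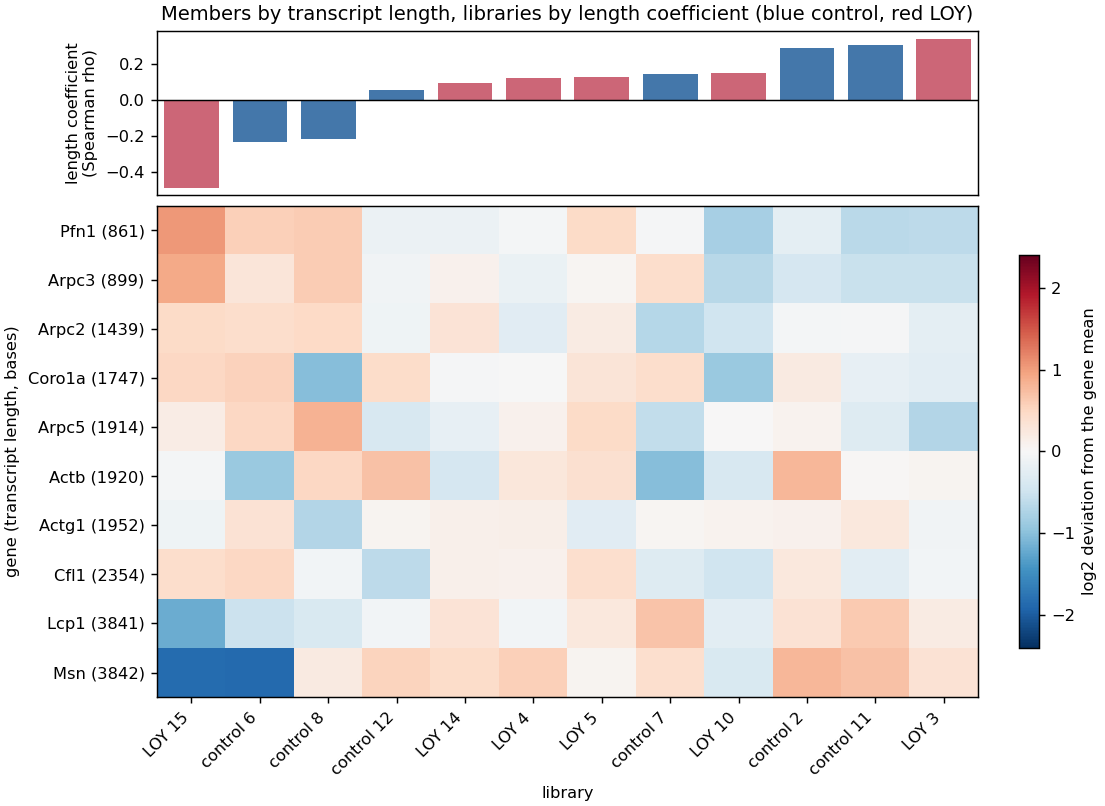
Top, the length coefficient of each library (Spearman rho, bars, control in blue and LOY in red), ordered from lowest to highest. Bottom, the log2 deviation of each of the 10 genes from its own mean in the same libraries (colour scale), ordered by transcript length from 861 to 3842 bases, with red for Pfn1 and Arpc3 and blue for Lcp1 in LOY 15, control 6 and control 8.

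Among the 45 pairs of the 10 genes, the highest correlations were between Pfn1 and Arpc3 and between Lcp1 and Msn. Within each of these pairs the principal transcripts had nearly the same length, but by the union of all annotated exons Lcp1 has 9504 bases and Msn 6327. Pfn1 and Arpc3 correlated at r = 0.91 over the 12 libraries (adjusted p = 0.00315 over the 45 pairs; rho = 0.93, adjusted p = 0.00225; 0.83 without the 2 farthest libraries). Lcp1 and Msn correlated at r = 0.81 (adjusted p = 0.0274), with a rho of 0.70 that did not pass (adjusted p = 0.197). The other pairs had adjusted p-values of 0.151 and above for r, among them Actb and Actg1 (r = -0.41, rho = -0.31), whose transcripts differ by 32 bases. Actb and Arpc5 (r = 0.20) differ by 6 bases and Actg1 and Arpc5 (r = -0.46) by 38, so a like length did not go with a correlation in these pairs. With the length coefficient as a covariate in the fit, an alternative chosen after seeing the data, the SE of the fold change was smaller for 9 of the 10 genes (0.153 to 0.320) and 0 were called.

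Set against transcript length, the order of the 10 genes changed. As normalised reads per kilobase of the principal transcript, Pfn1 was highest at 18073 ± 7498 (mean ± SD, n = 12), before Actg1 at 14182 ± 2378, Actb at 12261 ± 4571 and Coro1a at 9847 ± 3054. Neighbours among these 4 did not differ beyond the spread between libraries. Coro1a was above Lcp1, at 5481 ± 1785, in 12 of 12 libraries (adjusted p = 0.00439, exact sign-flip permutation test on the log2 ratio, adjusted over 9 neighbouring pairs). The neighbouring pairs were picked from the order of means in these same libraries, and the p-values make no allowance for that. Lcp1 and Arpc2, at 5263 ± 1344, did not differ beyond the spread, nor did Arpc2 and Arpc3, at 4786 ± 1712. Arpc3 was above Arpc5, at 3079.7 ± 1015, in 11 of 12 libraries (adjusted p = 0.00439, the same exact test), and below it came Cfl1 at 2598 ± 640.1 and Msn at 2169 ± 906. The other listed subunits of the Arp2/3 complex were spread over a wide range. Arpc1b, the form of the p41 subunit common in blood cells, had 5784 per kilobase and Actr3 1702. Below them came Arpc4 at 870, Actr2 at 548, Arpc1a at 354 and Arpc5l at 245. Without control 6, control 8 and LOY 15 both differences stood (adjusted p = 0.0176 and 0.0234, exact sign-flip permutation test). Lcp1 was then above Arpc2 in 9 of 9 libraries, against 9 of 12 with all libraries. Those 3 libraries were left out because long transcripts are low in them, and Lcp1 has the longer transcript. That count thus follows from the choice of libraries and tests nothing. These levels depend on the transcript taken: by the union of all annotated exons Actg1 was highest at 10415, before Actb at 8787 and Pfn1 at 6470. By that union Arpc3, at 1558, was below Arpc5, at 2590, and Lcp1, at 2215, was below Arpc2, at 3725. Both orders were thus reversed, while Coro1a, at 6181, stayed above Lcp1. The orders by the union were not tested.

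**Figure D5:**
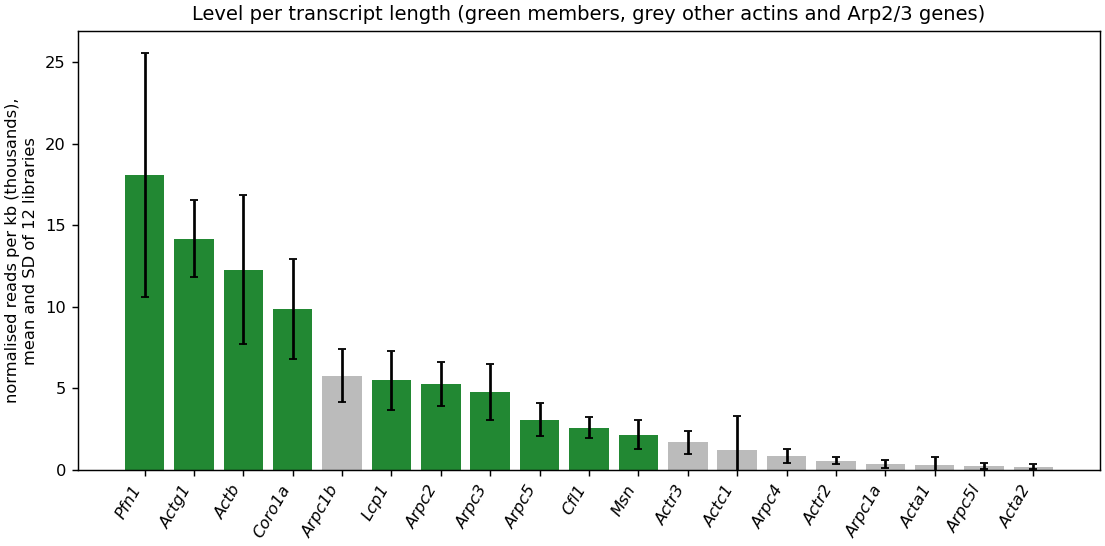
Normalised reads per kilobase of the principal transcript (in units of 1000, y axis; bars are means and error bars SDs of the 12 libraries) for the 10 genes in green and for muscle actins and other Arp2/3 subunits in grey. Pfn1 leads at 18073, and Arpc1b at 5784 is the only grey bar among the green ones.

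The 10 lists of actin genes, 163 genes with the members included, put these values beside the rest of the system. Of these genes 151 were in the table and 130 were tested, and limma called 0 of them. An unadjusted p under 0.05 was reached by 4 (3.08%, against 4.37% of all tested genes), 64 fold changes were above 0 and 66 below, and the median was -0.0028. DESeq2 called 1, Actc1, and edgeR 0. By list, the actin isoforms had 2 of 5 tested genes above 0 (median -0.03), the Arp2/3 complex 3 of 9 (median -0.05), nucleation promoters and formins 10 of 22 (median -0.15), and monomer-binding genes 2 of 6 (median -0.07). Severing and capping genes had 12 of 21 above 0 (median 0.05), bundling genes 6 of 13 (median -0.04), membrane linkers and adhesion adaptors 9 of 13 (median 0.05), and myosins and tropomyosins 10 of 16 (median 0.10). In the SRF and MRTF list both tested genes, Srf and Mkl1, were above 0 at 0.99 (SE 1.97) and 0.45 (SE 1.57), and the value of Mkl1 turned to -1.08 without control 8.

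The 4 genes with an unadjusted p under 0.05 all had an adjusted p of 0.997 by limma. Abi1, an adaptor of the WAVE complex that switches on Arp2/3, had 1447 ± 478 normalised reads in control and 693 ± 250 in LOY libraries (SD, n = 6 each), a log2 fold change of -1.12 (SE 0.40). Only control 8, at 861, lay within the LOY range of 224 to 975. Limk2, a kinase that inactivates cofilin, had 78.4 ± 157 and 387 ± 362, with 0 reads in control 2 and control 12. Its log2 fold change of 4.43 (SE 1.53) therefore leans on the added 1. The other two were Actc1, described above, and the tropomyosin gene Tpm1, at 1026 ± 570 and 3003 ± 2983 with a log2 fold change of 1.39 (SE 0.58). Tpm1 also stands in the cardiomyocyte list, and its highest library was LOY 10 at 8908.

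The other named genes had the smallest p within each list, and none passed the test. Cyfip1, another WAVE complex subunit, had 216 ± 111 and 427 ± 124 normalised reads (log2 fold change 1.07, SE 0.58), opposite in sign to Abi1. Wdr1, a cofactor of cofilin, had 2608 ± 570.0 and 1790.3 ± 934 (-0.68, SE 0.35), and Pak2, a kinase downstream of Rac and Cdc42, 1921 ± 286 and 1368 ± 277 (-0.50, SE 0.26). Fermt3, the kindlin of blood cells that activates integrins, had 893 ± 291 and 1521 ± 554 (0.72, SE 0.40). Evl, a filament-elongating Ena/VASP protein, had 71.8 ± 55.6 and 6.96 ± 9.47 (-3.07, SE 1.44) with 3 libraries at 0. The adjusted p was 0.997 by limma for each of these 5 genes. Arpc4, a further Arp2/3 subunit, had 1704 ± 704 and 2248 ± 1223 (0.38, SE 0.37), and Arpc5l, which can take the place of Arpc5, 322 ± 289 and 335 ± 283 (-1.52, SE 1.61). The sign for Arpc5l comes from LOY 4, at 0, and LOY 5, at 4.94, on the log scale, and DESeq2 gave 0.06. Further named genes of the lists were Twf1 (-2.24, SE 1.41), Twf2 (0.67, SE 0.78), Actn4 (0.90, SE 0.73), Rock1 (-0.62, SE 0.39) and Prex1 (0.63, SE 0.41), as log2 fold changes, and none of these was called.

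Actin genes are textbook targets of serum response factor, which binds the CArG box, so the promoters were read for it. RefSeq promoters on GRCm38.p6 were matched for 9 of the 10 genes, 11 promoters in all, and the 250 bases before each start were searched on both strands. A CArG box was found in 1 of the 11, that of Actg1, starting at position -90 from the RefSeq start, where 482 of 32851 promoters of that length (1.47%) hold one. Over all the actin lists, 9 of 179 promoters held a CArG box, among them Acta1, Actc1, Srf and Vcl. The Actg1 promoter up to the annotated gene start, 203 bases at chr11:120348543-120348745 on the minus strand, is shown with its CArG box in capitals.
Actg1 promoter: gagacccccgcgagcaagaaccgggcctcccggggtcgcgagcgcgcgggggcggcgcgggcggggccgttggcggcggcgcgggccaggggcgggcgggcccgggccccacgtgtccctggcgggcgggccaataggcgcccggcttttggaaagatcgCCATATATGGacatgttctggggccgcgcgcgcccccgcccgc
A match describes the letters of the window only. Actg1, which holds the box, was the steadiest of the 10 genes across libraries, and Actb, which has no entry in the table used, varied 3.54-fold.

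Outside the actin lists, the genes whose levels followed the mean log2 level of the 10 most closely over the 12 libraries were Zc3h15 (r = 0.87), Gm11346 (0.86), Ing3 (0.84), Luc7l (0.83) and C530050E15Rik (0.82), out of 7818 genes searched. Without the 2 libraries farthest from the median of that mean, these fell to between 0.47 and 0.66. Luc7l was above 0 in all 12 libraries, and each of the others was at 0 in at least 1. These correlations were picked as the highest and are given as a description.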

How the data were processed

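The authors deposited 1 table of 11911 genes with a log2 fold change, a p-value and an adjusted p-value per gene and 12 signal columns of normalised reads, per the file headers. Within 0.01 of a read, 100% of the signal values deposited by the authors were whole multiples of 1 step per library, which gave whole reads back. The submitters' processing notes name Subread 1.5.2 with featureCounts, STAR 2.5.2b, Trimmomatic 0.36 and bcl2fastq 2.17, and the builds GRCm38 and mm10. The tool that scaled and tested the values was not given in the sources used here. Per the labels' protocols, cDNA was made with SMART-Seq v4 and libraries with Nextera XT, which mark neither strand nor molecules, so PCR copies count as reads.

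Computed here: limma 3.58.1 (trend, robust) on log2(normalised reads + 1), genes of 10 or more normalised reads in 6 or more libraries (6951), genotype only, Benjamini-Hochberg over all tested genes, threshold 0.05. DESeq2 1.42.0 and edgeR 4.0.16 ran on the recovered reads. Ratios and shares were compared by exact permutation. The fit was tested on simulated data. Annotation is GENCODE M21 (GRCm38; 11892 identifiers matched), promoters are from RefSeq (GRCm38.p6). The members, lists and tests were chosen with earlier results of these data known. Named genes are the 10 members, 2 to 4 genes of smallest p per actin list, the 2 most abundant markers per marker list where used, and the 5 genes most like the member mean. Some list results are not reported here. Alternatives are given in the closing section. The totals are reads of listed genes, and intervals cover the spread between libraries, not shared preparation steps.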

Additional observations from a re-analysis of the deposited data

Results flagged for a closer look

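In groups of 6 libraries, 10 of the 64 groups examined had 1 library standing apart from the other 5 by more than Dixon's 95% critical value of 0.625, where chance gives about 1 in 20. Among the 10 actin cytoskeleton genes these were Actg1 in control 8, at 16743 normalised reads against 28279 to 34546 in the other control libraries, and Msn in control 6, at 1977 against 8473 to 12570.4.

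LOY 10 stood apart in Actc1, at 11477 against 704 to 1943 in the other LOY libraries, in the muscle actin share, at 23.4% against 1.37% to 5.40%, and in Fermt3, at 494 against 1401 to 2045. Control 8 was low for Twf2, at 43.1 against 944 to 1810.5, and at 0 for Mkl1, against 288 to 1329. Abi1 was 224 in LOY 5 against 703 to 975, Tpm1 was 210.1 in control 12 against 830.3 to 1764, and Rock1 was 1813 in LOY 3 against 609.5 to 859. The cause of these values was not tested.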

How the results depend on the processing

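No paired analysis was possible because the groups share no replicate number. Over 23 alternative settings the 10 genes gave 230 fold changes, of which 195 kept their sign, 35 turned it and 0 passed the threshold; they ran from -0.66 to 0.28 on the log2 scale and the lowest adjusted p was 0.916. The count of genes called, 2 in the reported fit, was 0 without a filter, 0 with a mean of at least 50, 303 by DESeq2, 0 by edgeR, 0 without the 3 libraries of negative length coefficient, and 0 to 4 with 1 library left out. Of the actin list genes DESeq2 called 1 (Actc1, log2 fold change 2.35). Signs turned under quantile normalization for Actb (0.049), Actg1 (0.073), Pfn1 (0.056), Arpc2 (0.061) and Arpc5 (0.024); by DESeq2 and edgeR for Pfn1 (0.034 and 0.043), Arpc5l (0.061 and 0.035) and Mkl1 (-0.29 and -0.31); with array weights for Mkl1 (-0.38); with the length coefficient for Arpc2 (2.25e-05); and without the 3 libraries for Pfn1 (0.035), Arpc2 (0.13), Arpc5 (0.24), Twf2 (-0.16), Mkl1 (-0.85) and the Actb to Actg1 log2 ratio (-0.019). With 1 library left out, fold changes ran from -0.24 to 0.12 for Actb, -0.18 to 0.029 for Actg1, -0.25 to 0.12 for Pfn1, -0.35 to 0.038 for Coro1a, -0.66 to 0.083 for Msn, -0.14 to 0.10 for Arpc2, -0.29 to 0.023 for Arpc3, -0.17 to 0.12 for Arpc5, -0.14 to 0.94 for Twf2 and -1.08 to 1.00 for Mkl1, and the log2 ratio from -0.25 to 0.24. The difference in muscle actin share ran from 0.741 to 5.15 percentage points (5.15 without LOY 5, exact permutation p = 0.0498), and was 4.35 with Actc1, Actb and Actg1 only (exact permutation p = 0.0108). Of 447 values of the other named genes 437 kept their side, 9 turned and 1 passed the threshold. Without the 3 libraries, the log2 ratio per kilobase turned to -0.032 for Pfn1 over Actg1 and to -0.064 for Cfl1 over Msn, neither past the threshold. No scaling moved the median of all genes by more than 0.1 (TMM -0.05, quantile -0.02). The settings with the length coefficient, the Actc1 share and DESeq2 without LOY 10 were chosen after seeing the data, and the causes of the changes were not tested.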
